A study of Arabidopsis thaliana with 6 samples.

Results

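The places where DNA methylation differed between mat nrpd1+/- and pat nrpd1+/- endosperm were examined as 3353 differentially methylated regions (DMRs), 1181 in the CG context and 2172 in the CHH context, where H stands for any base but G. They are all the regions on the 5 nuclear chromosomes in the lists that set the reciprocal heterozygotes directly against each other, out of 8950 regions in the 6 DMR lists of the study. Whole-genome bisulfite sequencing, which reads methylated cytosines as C and unmethylated cytosines as T, was done on endosperm dissected from Arabidopsis thaliana seeds 7 days after pollination. Endosperm is the nourishing tissue of the seed and holds more genome copies from the mother than from the father. In mat nrpd1+/- endosperm the mother was a Ler nrpd1-/- plant and the father a Col-0 plant, and in pat nrpd1+/- endosperm the mother was a Ler plant and the father a Col-0 nrpd1-/- plant. The WT reference was the F1 of a Ler mother and a Col-0 father. All 3 genotypes are thus Ler by Col-0 hybrids with the Ler genome from the mother, and each had 2 replicates, collected from crosses with different parent plants. The mutation was the single insertion allele nrpd1a-4, made in Col-0 and introgressed into Ler, so Ler nrpd1-/- mothers can still carry Col-0 sequence. Each replicate pooled endosperm from many seeds. With more maternal than paternal genomes, mat nrpd1+/- endosperm holds fewer intact NRPD1 copies than pat nrpd1+/- endosperm. The study describes NRPD1 expression as biased to the paternal copy. Its mRNA sequencing found more NRPD1 transcript in mat nrpd1+/- than in pat nrpd1+/- endosperm. Copy number thus does not give the order of NRPD1 transcript levels.

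NRPD1 is the catalytic subunit of RNA polymerase IV (Pol IV). It starts RNA-directed DNA methylation (RdDM), in which small RNAs bound by Argonaute proteins bring the methyltransferase DRM2 to matching loci that Pol V transcribes. The polymerase RDR2 and the nuclease DCL3 make these small RNAs from Pol IV transcripts. CHH methylation has to be placed anew after each DNA replication, by DRM2 at RdDM targets and by CMT2 in heterochromatin, whereas CG methylation is copied to the new strand by MET1. RdDM acts mostly at transposons and repeats, including short ones near genes, and plant gene bodies often carry CG methylation without CHH methylation.

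Every value below is a difference in percent methylation in percentage points, mat nrpd1+/- minus pat nrpd1+/-, so a negative value is lower methylation in mat nrpd1+/-. A DMR had to differ by at least 30 points in CG or 10 points in CHH. Reads of both replicates were pooled within each genotype, so each DMR has 1 value without a spread, and no test between genotypes was made. The replicates entered only through a filter, by which the authors left out regions that differed between the replicates of a genotype. The lists give neither methylation levels nor read counts, so the depth behind a value is unknown beyond the minimum number of reads per cytosine that the authors required. Each value averages over maternal and paternal alleles and over all dissected cells, so a large change on the alleles of 1 parent or in some cells and a smaller change in all of them cannot be told apart. Exact 95% Clopper-Pearson intervals are given for shares of regions and cover the counting of regions only.

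The reference sequence of 3 regions shows what such places look like. They are the lower and the higher CG DMR and the higher CHH DMR with the largest difference among those no longer than a 300-bp window, in the RefSeq TAIR10.1 sequence, whose chromosome lengths fit the TAIR10 coordinates of the lists. All are given on the plus strand. In the pair from the CG lists, capitals mark CG dinucleotides, the sites that CG methylation can occupy. The lower CG region, chr5:20492501-20492800, differed by -75.5 points and overlapped a coding exon of AT5G50340, annotated as a RadA-like DNA repair protein. The higher CG region, chr2:12668801-12669100, differed by 86.6 points and overlapped THIC (AT2G29630), which makes the pyrimidine part of thiamine.
AT5G50340, CG lower: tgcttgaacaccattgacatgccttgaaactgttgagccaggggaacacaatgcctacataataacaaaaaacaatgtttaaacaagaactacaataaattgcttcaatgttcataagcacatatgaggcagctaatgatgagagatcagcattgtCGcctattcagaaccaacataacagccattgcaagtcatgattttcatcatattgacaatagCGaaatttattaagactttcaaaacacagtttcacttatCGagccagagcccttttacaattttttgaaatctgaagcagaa
THIC, CG higher: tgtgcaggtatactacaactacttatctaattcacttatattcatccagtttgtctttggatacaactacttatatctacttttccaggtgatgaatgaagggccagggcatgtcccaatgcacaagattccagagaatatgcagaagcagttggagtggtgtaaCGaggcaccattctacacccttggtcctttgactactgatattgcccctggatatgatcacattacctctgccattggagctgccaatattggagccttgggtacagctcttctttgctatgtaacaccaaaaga
The first holds 3 CG sites and the second 1, so each of these differences rests on very few cytosines of the reference sequence. In the CHH sequence, capitals mark cytosines followed by a pair of bases other than G on the printed strand, that is, the CHH sites of that strand. The higher CHH region, chr3:16847301-16847600, differed by 50.6 points and lay 303 bp downstream of AT3G45840, annotated as a cysteine- and histidine-rich C1 domain protein.
AT3G45840, CHH higher: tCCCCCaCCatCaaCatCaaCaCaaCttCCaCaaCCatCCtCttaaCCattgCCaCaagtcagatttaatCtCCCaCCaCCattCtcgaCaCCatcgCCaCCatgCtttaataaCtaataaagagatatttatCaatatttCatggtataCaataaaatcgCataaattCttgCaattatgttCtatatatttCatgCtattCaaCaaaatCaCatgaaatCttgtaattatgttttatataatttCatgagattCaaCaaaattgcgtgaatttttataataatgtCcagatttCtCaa
The AT3G45840 region holds 82 CHH cytosines over both strands and has a GC content of 31.3%. The median CHH DMR likewise held 82 CHH cytosines, so CHH values averaged over many more cytosines than CG values.

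Methylation differed in both directions in both contexts, with more regions higher than lower in mat nrpd1+/-. Of the 1181 CG DMRs, 510 were lower and 671 higher in mat nrpd1+/-, with medians of -34.9 and 37.3 points. Of the 2172 CHH DMRs, 1011 were lower and 1161 higher, with medians of -13.8 and 15.2 points. In 100-bp bins of tested sequence, meaning sequence that passed the filters on maternal reads and replicate variation in both heterozygotes, 0.48% lay in a CG DMR (0.204% lower, 0.277% higher) and 0.933% in a CHH DMR (0.428% lower, 0.505% higher). Methylation thus differed past the thresholds in under 1% of the tested sequence in either context.

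The excess of higher regions was not even across sizes. Among CG DMRs of 30 to 35 points, 49.9% were lower in mat nrpd1+/- (256 of 513, interval 45.5% to 54.3%). The share fell to 38.8% at 40 to 50 points (of 260 regions, interval 32.9% to 45.1%) and to 21.7% at 50 to 60 points (20 of 92, interval 13.8% to 31.6%). Of the 59 CG DMRs above 60 points, 14 were lower and 45 higher in mat nrpd1+/-. The CG excess of higher regions therefore lay among the large differences, while small CG differences were split evenly. In CHH, 55.6% of the regions between 10 and 12 points were lower in mat nrpd1+/- (338 of 608, interval 51.5% to 59.6%), against 38.9% at 20 to 30 points (133 of 342, interval 33.7% to 44.3%) and 39.5% above 30 points (88 of 223, interval 33.0% to 46.2%). The direction of the CHH majority was thus opposite in the smallest and the largest size classes. Many regions lay close to the thresholds, with 35.3% of the lower and 25% of the higher CG DMRs and 18.5% of the lower and 13.5% of the higher CHH DMRs within 10% of it.

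**Figure D1:**
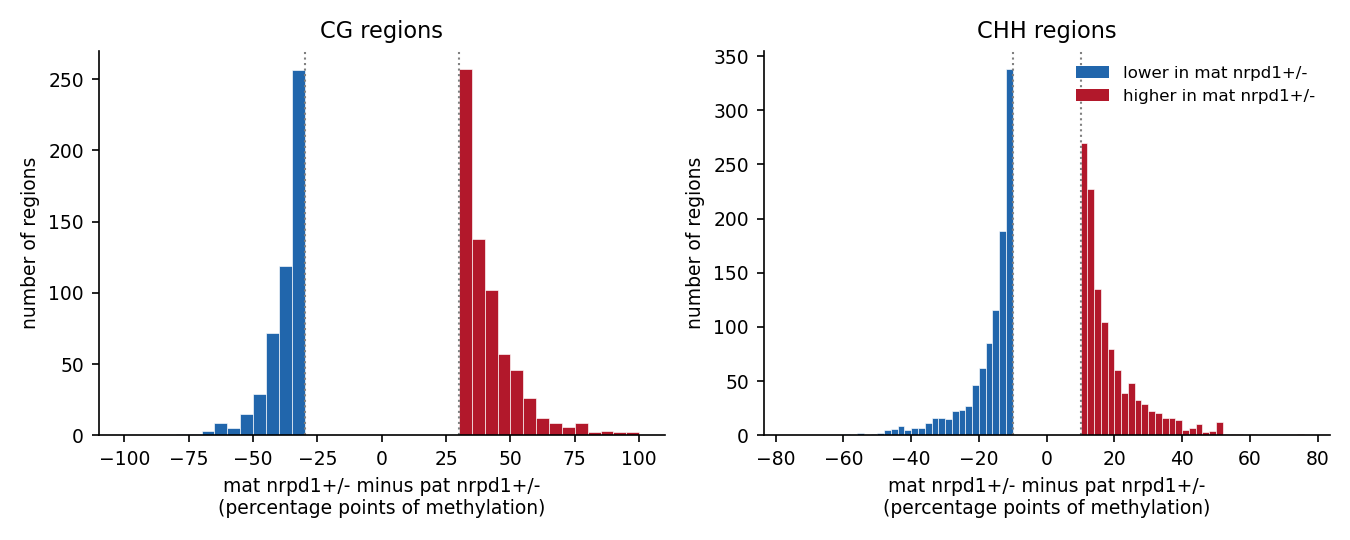
Number of DMRs by difference in methylation, mat nrpd1+/- minus pat nrpd1+/- in percentage points (5-point bars for CG, 2-point bars for CHH), with dotted lines at the calling thresholds of 30 and 10 points. The bars nearest the threshold are about equal on both sides in CG and taller on the lower side in CHH, and the tail is longer on the higher side, reaching 100 points in CG and 75.7 points in CHH.

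Regions were short. The median DMR was 300 bp in both contexts and both directions, and 735 CG DMRs (62.2%) and 1222 CHH DMRs (56.3%) were no longer than a single window. The longest CG regions were 1100 bp and the longest CHH region was 1200 bp. CG DMRs above 60 points averaged 456 bp, against 345 bp at 30 to 35 points, and CHH DMRs averaged 403 bp above 30 points and 344 bp between 10 and 12 points. Longer regions were more often higher in mat nrpd1+/-, with 27 of 40 CG and 40 of 58 CHH DMRs of 600 bp or more in that direction. Length and difference come from the same windows and are not independent.

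The number of cytosines under a region differed with its direction in both contexts, but this number depends on length and is not a separate trait. The median CG DMR held 6 CG sites. A single site in the reference sequence was found in 47 CG DMRs, although the authors required several shared cytosines per window, and how such regions met this is not given in the sources used here. The lower share was 48.9% among these 47 (23 regions) and 53.0% among those with 2 or 3 sites (125 of 236). It was between 39.8% and 41.5% in the classes with 4 sites or more. In CHH the lower share was 54.2% under 50 cytosines (26 of 48) and 39.5% at 120 cytosines or more (116 of 294). CG DMRs were not rich in CG sites, with a median of 1.67 sites per 100 bp against 2 in all tested windows. CHH DMRs were AT-rich, with a median GC content of 30% against 36.3% in tested windows, and held 23.6 CHH cytosines per 100 bp against 26.3. Lower and higher regions were alike in GC content, at 35.7% and 35% in CG and 29.3% and 30.4% in CHH. Lower and higher CG DMRs were also alike in CG sites per 100 bp, with medians of 1.6 and 1.67.

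The largest differences in CG lay in genes, beside genes and in pseudogenes. The region with the largest CG difference, chr3:16682401-16682800, was 100 points higher in mat nrpd1+/-, which requires full methylation of the covered cytosines in mat nrpd1+/- and none in pat nrpd1+/-. It lay 403 bp downstream of AT3G45480, a predicted RING/U-box zinc finger protein. The next largest was 97.0 points higher at chr5:15918101-15918500, 740 bp downstream of AT5G39770, annotated as a restriction endonuclease-like protein. A region at chr3:12799201-12799600 was 91.7 points higher and lay 723 bp downstream of the pseudogene AT3G31440. SADHU5-1 (AT4G01525), a member of the Sadhu family of noncoding retrotransposons, was 90.2 points higher over chr4:661401-661800. The coding exon of AT5G27247, an uncharacterized gene that shares its region with a neighbouring gene, was 88.6 points higher over chr5:9601301-9601800. On the lower side, after AT5G50340, came the pseudogene AT4G09455 (-71.6 points, chr4:5987801-5988300) and the pseudogene AT5G35250 (-69.1 points, chr5:13501601-13501900). Then came a coding exon of AT3G09330, a predicted amino acid transporter (-68.3 points, chr3:2866101-2866600), and one of AT1G27180, a predicted TIR-NBS-LRR disease resistance gene (-67.7 points, chr1:9443601-9443900). These 10 CG regions held between 3 and 22 CG sites. Of them, 0 overlapped a CHH DMR, beside 3.81% of all CG DMRs, so nothing is read from this count.

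The lists against WT give a second value for some of these regions. They share libraries with the comparison of the heterozygotes, so the values are set side by side only. A region can be missing from them because its difference was smaller, its reads were too few or it failed a filter in WT. A region that is not listed is therefore not shown to be close to WT. In CG, 0.232% of the sequence tested against WT lay in a DMR of mat nrpd1+/- and 0.238% in a DMR of pat nrpd1+/-. At AT3G45480, SADHU5-1 and AT5G27247, pat nrpd1+/- was listed at -86.05, -55.72 and -94.29 points against WT, and mat nrpd1+/- was not listed. At AT4G09455, AT3G09330 and AT1G27180, pat nrpd1+/- was listed 78.9, 68.3 and 66.1 points above WT, and mat nrpd1+/- was again not listed. The other 4 of the 10 CG regions were not listed against WT in either heterozygote. THIC had the opposite arrangement, with mat nrpd1+/- 59.6 points above WT and pat nrpd1+/- not listed.

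Of the 10 leading CHH regions, 3 touched a coding exon, beside 15.8% of all CHH DMRs and 49.5% of tested 300-bp windows. With 10 regions nothing is read from this share. The largest of all, chr2:603001-603400, was 75.7 points higher in mat nrpd1+/- and lay 1052 bp upstream of AT2G02290, a predicted haloacid dehalogenase-like hydrolase. The next 2 were a coding exon of AT5G15780, a predicted pollen Ole e 1 allergen and extensin family protein (61.5 points over chr5:5144901-5145500), and intergenic sequence 614 bp downstream of the pseudogene AT4G05583 (57.8 points over chr4:2862101-2862700). They were followed by the pseudogene AT3G33157 (55.0 points over chr3:13969401-13969900) and by a coding exon of AT5G45760, a predicted WD40 repeat protein (53.1 points over chr5:18563101-18564300, the longest region in either list). On the lower side, the largest was -58.1 points at chr2:13067301-13067700, 1390 bp downstream of AT2G30670, a predicted NAD(P)-binding protein. It was followed by -55.6 points at chr1:13261601-13262100, 2206 bp upstream of the pseudogene AT1G35760. A coding exon of AT1G77815, annotated as a ribonuclease H-like protein, was at -54.9 points over chr1:29263201-29263600. Further down was -49.2 points at chr1:16592801-16593100, 3293 bp downstream of the pseudogene AT1G43830.

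Against WT, 0.945% of the tested sequence lay in a CHH DMR of mat nrpd1+/- and 0.724% in one of pat nrpd1+/-. For the AT2G02290 and AT3G33157 regions mat nrpd1+/- was listed 75.7 and 52.6 points above WT. For AT1G35760 and AT1G77815 it was listed at -27.3 and -16.7 points. For AT2G30670, pat nrpd1+/- was listed 59.5 points above WT. The other 5 of these 10 CHH regions were in neither list against WT. Here too the differences are too large for both heterozygotes to lie within 10 points of WT over the same cytosines. In the retained blocks that hold the 20 leading regions, the fraction of reads from the maternal genome was between 0.585 and 0.645 in mat nrpd1+/- and between 0.619 and 0.655 in pat nrpd1+/-.

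DMRs lay on all 5 chromosomes, at 13.3 CG and 25.3 CHH regions per Mb of tested sequence. CG density varied little, from 12.3 per Mb on chromosome 1 to 14.4 on chromosome 2. CHH density was highest on chromosome 2, at 36.0 per Mb (466 regions), and lowest on chromosome 3, at 20.6 per Mb (423 regions). The lower share ranged from 40% on chromosome 2 to 47.1% on chromosome 4 in CG and from 43.5% on chromosome 5 to 49.6% on chromosome 4 in CHH, with overlapping intervals, so that no chromosome had a majority of lower regions in either context. Chromosomes were tested to very different extents. The sequence retained in both heterozygotes was 49.1% of chromosome 1 and 69.1% of chromosome 2, against 83.2% to 91.7% of the others. NRPD1 itself, on chromosome 1, was not in retained sequence, so these lists hold no value at the mutated gene.

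CHH regions were dense in the gene-poor parts of the chromosomes, and CG regions less so. Gene-poor sequence was defined as 500-kb bins in which protein-coding genes cover under 30% of the bases. It comprised between 6 and 10 bins on each chromosome, around the centromeres. Tested sequence can include places unmethylated in both heterozygotes, where no DMR can be called. The lists hold no levels, so whether the density of DMRs follows that of methylated sequence was not tested. The same limit holds for the gene classes and gene starts below. CHH DMRs numbered 55.6 per Mb there and 19.6 per Mb elsewhere, a ratio of 2.83 (exact 95% interval 2.59 to 3.10), and CG DMRs 19.5 and 12 per Mb, a ratio of 1.62 (interval 1.42 to 1.86). In CHH the ratio was 2.87 for lower and 2.80 for higher regions. In CG the gene-poor excess was in the higher regions, whose ratio was 2.01 (interval 1.69 to 2.38), while the ratio for lower regions was 1.18 (interval 0.934 to 1.47). Accordingly, 33.6% of the gene-poor CG DMRs were lower in mat nrpd1+/- (96 of 286, interval 28.1% to 39.4%) against 46.3% of the others (414 of 895, interval 43.0% to 49.6%). The lower shares of CHH were 46.9% and 46.3%. The median absolute differences in gene-poor and other sequence were 36.9 and 36.0 points in CG and 14.8 and 14.3 points in CHH, so that location went with number and, in CG, with direction, but little with size.

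With distance from the middle of the gene-poor bins, the contexts followed different curves. CHH density was highest within 2 Mb, at 54.3 and 55.5 regions per Mb in the first and the next 1-Mb step, and fell to 17.9 per Mb at 4 to 5 Mb. CG density was 13.6 per Mb within 1 Mb of the middle, rose to 26.2 per Mb at 2 to 3 Mb and fell to 11 per Mb at 4 to 5 Mb. CG density was thus lower in the first step than in the next 3, while CHH density was about the same in its first 2 steps. In the first step 41.1% of the CHH DMRs were lower in mat nrpd1+/- (109 of 265), and 50.3% in the next (234 of 465). The CG lower share rose from 29.2% within 1 Mb (21 of 72) to 42.7% at 2 to 3 Mb (100 of 234) and 48.7% at 4 to 5 Mb (38 of 78). Beyond 9 Mb the 1-Mb steps hold between 11 and 51 CG regions each and their lower share moved between 18.2% and 62.7%.

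**Figure D2:**
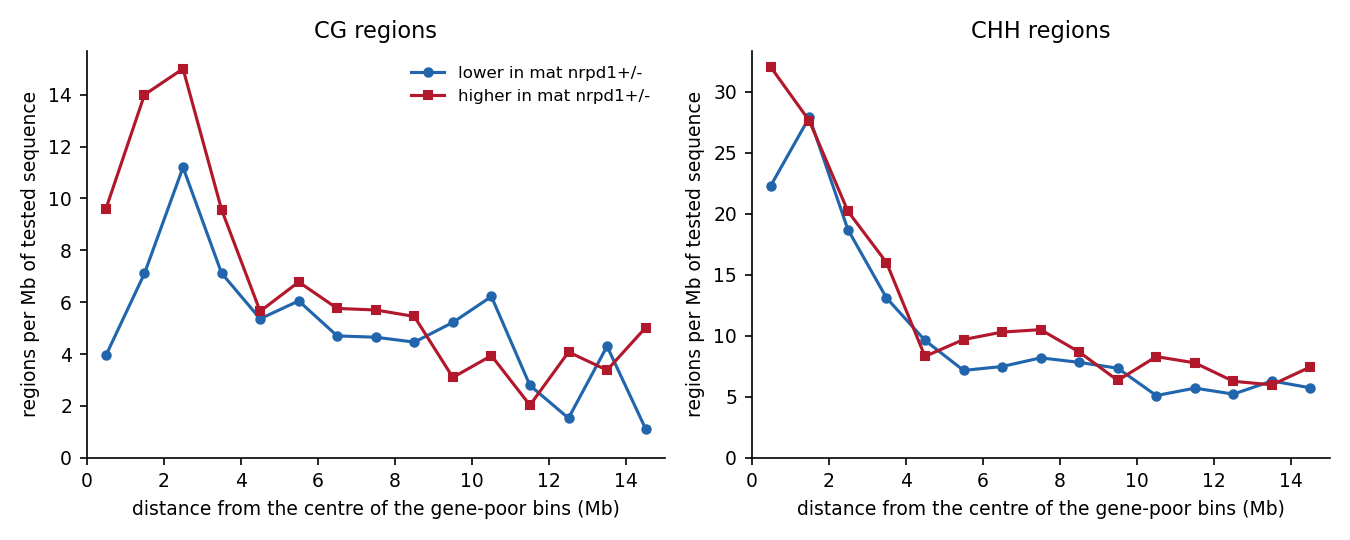
DMRs per Mb of tested sequence (y axis) by distance in Mb from the mean position of the gene-poor bins of each chromosome (x axis), over the 5 chromosomes, for regions lower and higher in mat nrpd1+/-. In CG the higher regions lead in every step from 0 to 9 Mb, by more within 4 Mb than from 4 to 9 Mb. Both CG lines peak at 2 to 3 Mb (11.2 and 15 per Mb). In CHH both lines are highest within 2 Mb. They stand at 22.3 lower and 32 higher regions per Mb in the first step and 27.9 and 27.6 in the next.

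DMRs were spread widely and also stood in small groups. At least 1 DMR lay in 869 of the 1008 100-kb bins with tested sequence, and 36 bins held 10 or more. The fullest bin, chr2:2200001-2300000, held 19 (6 CG and 13 CHH), of which 13 were higher in mat nrpd1+/-. The next, chr3:15700001-15800000, held 10 CG and 8 CHH regions, 10 of the 18 higher. It includes DCL3. The median distance from a DMR to the next one of the same context was 19.8 kb in CG and 10.6 kb in CHH. Where the next DMR lay within 1 kb, it had the same direction in 54 of 80 cases in CG (67.5%) and 123 of 219 in CHH (56.2%), against 51.8% and 49.2% at larger distances. Each DMR was counted with its own nearest neighbour, so DMRs nearest to each other enter from both sides and the cases are not independent. In these counts close neighbours in CG shared their direction more often than distant ones, but even within 1 kb opposite directions were common.

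CG and CHH DMRs seldom coincided. Of the 1181 CG DMRs, 45 (3.81%, interval 2.79% to 5.07%) overlapped a CHH DMR, and the 45 CHH DMRs they overlapped were 2.07% of that list (interval 1.52% to 2.76%). Of all 300-bp windows tested in both contexts, 1.44% overlapped a CHH DMR and 0.723% a CG DMR. Both shares were thus above the share of windows, but more than 9 in 10 regions of either list had no partner. DMRs are on average longer than these windows (363 bp in CG, 368 bp in CHH) and meet the other list more easily. Both lists were also denser in gene-poor sequence, and the shares were not adjusted for either. Within 1 kb, 123 CG DMRs (10.4%) had a CHH DMR and 129 CHH DMRs (5.94%) had a CG DMR. Moreover, 115 CG DMRs overlapped a region whose CHH methylation varied between replicates of mat nrpd1+/- or pat nrpd1+/-, where CHH DMRs were left out.

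Where both contexts were listed, they mostly had the same direction. In 24 pairs CG and CHH were both higher in mat nrpd1+/- and in 9 both were lower, so that 33 of 45 (73.3%, interval 58.1% to 85.4%) had the same direction. CG was higher and CHH lower in 7 pairs, and the reverse held in 5. The CG partners were 31 higher and 14 lower, and the CHH partners 29 higher and 16 lower. Most partners in either context were thus higher, so part of this agreement would be present even if the directions were unrelated. Of the CG partners, 64.4% were longer than a window against 36.7% of the other CG DMRs. Their median absolute difference was 37.3 points against 36.2, and that of the CHH partners 14.9 against 14.5, so that pairs were longer but hardly larger in difference. In gene-poor sequence lay 14 of the 45 pairs (31.1%), beside 23.9% of the other CG DMRs and 34.8% of the other CHH DMRs.

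The 5 pairs with the largest CG difference were all higher in both contexts. The first lay 1097 bp upstream of AT1G31220, a predicted formyl transferase, with 81.3 points in CG and 11.4 in CHH at chr1:11155101-11155600. The second, at chr1:6722501-6723500, covered the transcribed pseudogene AT1G19420, with 74.9 points in CG and 26.1 in CHH. Against WT this place was listed at 58.6 (CG) and 24.7 points (CHH) in mat nrpd1+/- and at -33.2 points (CG) in pat nrpd1+/-. The third lay 157 bp upstream of LBD4 (AT1G31320), a LOB-domain transcription factor gene, with 73.7 points in CG and 19.1 in CHH at chr1:11212301-11212800. Here pat nrpd1+/- was listed below WT in both contexts, at -46.7 points in CG and -18.4 in CHH. The fourth overlapped a coding exon of ARAD2 (AT5G44930), annotated as an exostosin family protein, with 70.6 points in CG and 12.3 in CHH. The fifth overlapped a coding exon of RPP4 (AT4G16860), which gives resistance to downy mildew, with 63.0 points in CG and 23.9 in CHH. RPP4 sits in a cluster of similar resistance genes, and how reads matching several of them were placed is not given in the sources used here, so its value is uncertain.

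In the 12 pairs of opposite direction the CHH difference ran from -20.7 to 26.6 points. The largest by CHH difference were -35.6 points in CG and 25.6 in CHH upstream of the RING/U-box gene AT1G36950, and -30.8 in CG and 26.6 in CHH downstream of EXT13, an extensin-like cell wall protein gene. The opposite arrangement was represented 1258 bp upstream of the F-box gene AT2G27310, with 56.7 points in CG and -12.6 in CHH. It also stood 375 bp downstream of IPT5, a cytokinin biosynthesis gene, with 36.0 points in CG and -10.4 in CHH. These 4 were chosen after their values were seen.

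**Figure D3:**
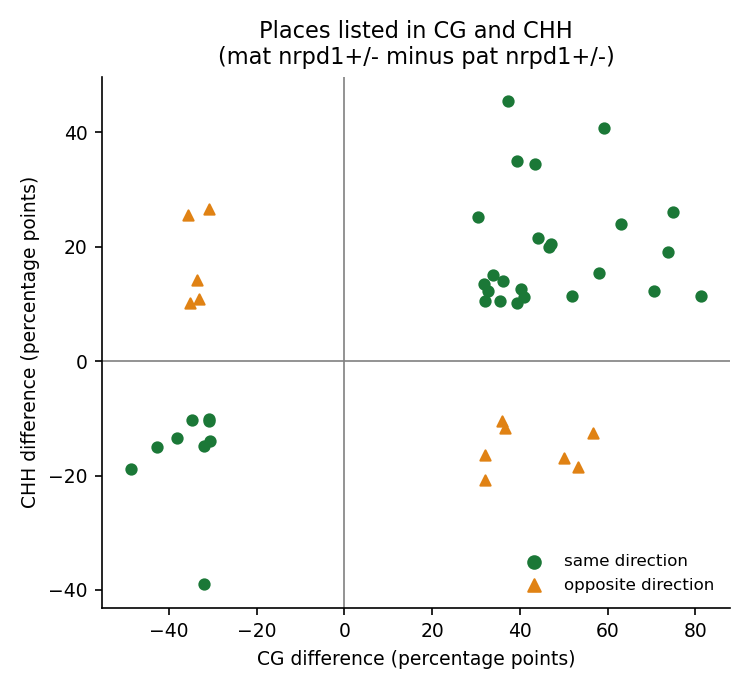
The 45 places listed in both contexts, by CG difference (x axis) and CHH difference (y axis), mat nrpd1+/- minus pat nrpd1+/- in percentage points, with 1 point per pair. Circles mark the 33 pairs of the same direction, 24 of them in the upper right quadrant, and triangles the 12 of opposite direction, and the gaps around 0 come from the calling thresholds.

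CG and CHH DMRs differed in where they lay relative to genes. Each region was given the first class that it touched, in the order coding exon, other exon of a protein-coding gene, intron, pseudogene or other gene, the 1 kb upstream, the 1 kb downstream and other intergenic sequence. A coding exon was touched by 46.2% of CG DMRs (546 regions, interval 43.4% to 49.1%), against 48.1% of tested 300-bp windows, and by 15.8% of CHH DMRs (344 regions, interval 14.3% to 17.4%) against 49.5% of windows. Of the CHH DMRs, 30.2% were other intergenic (655 regions, against 12.8% of windows), 17.2% touched a pseudogene or other gene (373 regions, against 11.3%) and 16.1% fell in the 1 kb upstream (350 regions, against 10.5%). Regions are on average longer than these windows (363 bp in CG, 368 bp in CHH) and touch a class more easily, so the share of bases was also compared. Coding exons made up 33.8% of the 100-bp bins in CG DMRs against 39.5% of tested bins, and 9.2% against 40.4% in CHH. Any part of a protein-coding gene was overlapped by 53.1% of CG DMRs (against 59.7% of windows) and 29.4% of CHH DMRs (against 60.9%). The 1 kb upstream of such a gene was overlapped by 19.2% of CG DMRs (against 27.3%) and 33.7% of CHH DMRs (against 26.9%). CG DMRs were thus below the tested sequence in coding exons by bases, in genes and upstream of genes, and CHH DMRs below it in genes and above it upstream. CG DMRs were fewer in other exons, which are mainly untranslated ones, at 3.64% (43 regions, against 9.28% of windows). They were somewhat more frequent in pseudogenes and other genes, at 14.6% (173 regions, against 11.6%), and in other intergenic sequence, at 18.2% (215 regions, against 13.5%). The annotation used holds no separate list of transposons, so a transposon could fall in any of these classes. Some transposon sequence is annotated as protein-coding, such as AT3G44570, a retrotransposon ORF-1 protein gene with a CG DMR in the other exon class.

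Direction went with these classes in CG. In coding exons 53.1% of the CG DMRs were lower in mat nrpd1+/- (290 of 546, interval 48.8% to 57.4%). The lower share was 29.5% in pseudogenes and other genes (51 of 173, interval 22.8% to 36.9%), 31.5% in the 1 kb upstream (34 of 108, interval 22.9% to 41.1%) and 36.3% in other intergenic sequence (78 of 215, interval 29.8% to 43.1%). The intervals of these 3 classes did not reach that of coding exons. The lower share was 41.9% in other exons (18 of 43, interval 27.0% to 57.9%) and 34.2% in introns (13 of 38, interval 19.6% to 51.4%). In the 1 kb downstream it was 44.8% (26 of 58, interval 31.7% to 58.5%). The intervals of these smaller classes overlapped that of coding exons. The surplus of higher CG regions thus lay outside coding exons, but the intervals cover counting only and are no test between classes. In CHH the lower share was 41.3% in coding exons (142 of 344, interval 36.0% to 46.7%), 44.2% in pseudogenes and other genes and between 48.9% and 49.5% in the upstream, downstream and other intergenic classes.

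**Figure D4:**
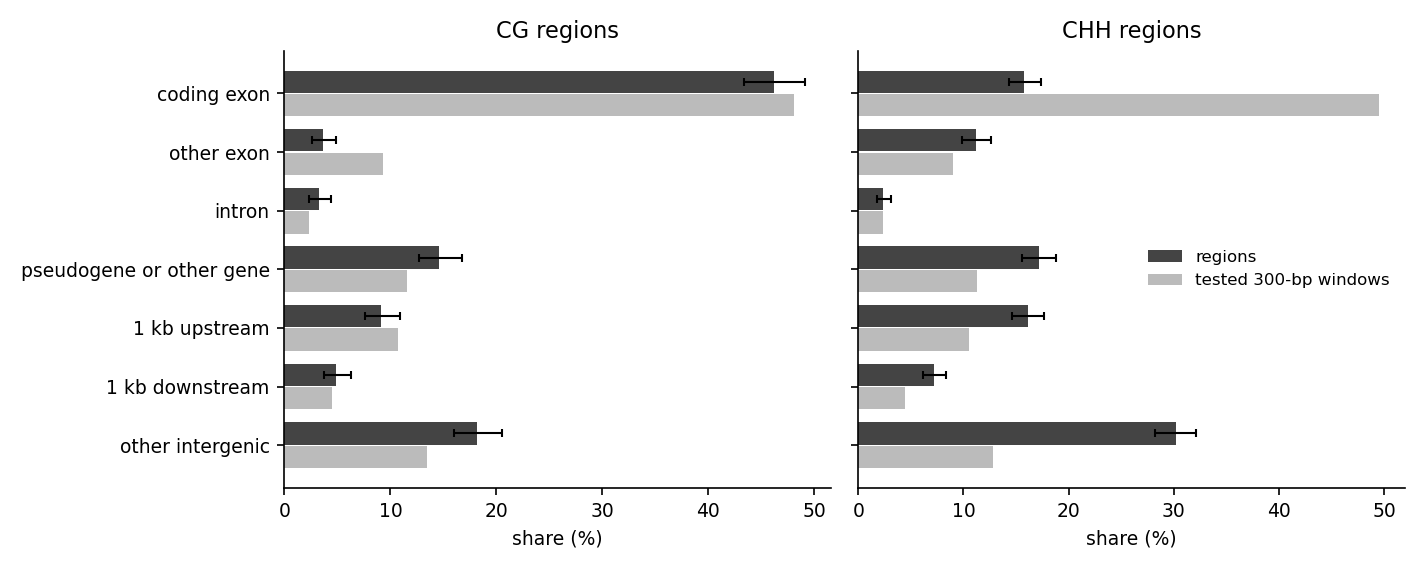
Share of DMRs (dark bars, with exact 95% intervals) and of tested 300-bp windows (light bars) in each class of position relative to genes, in percent. In coding exons the shares are 46.2% of CG regions and 48.1% of windows, whereas 15.8% of CHH regions against 49.5% of windows touch a coding exon and 30.2% against 12.8% are other intergenic.

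Around the starts of protein-coding genes the contexts formed opposite profiles. The share of tested positions in a CG DMR was 0.347% between 400 and 200 bp upstream, fell to 0.144% in the first 200 bp of genes and reached 0.561% at 1400 to 1600 bp from the start. The share in a CHH DMR was 0.733% at 2800 to 3000 bp upstream, rose to 1.37% in the last 200 bp before the start, and dropped to 0.433% at 200 to 400 bp inside. CHH differences were thus most frequent directly before gene starts and CG differences least frequent directly after them. In CG, the upstream 600 to 400 bp held more higher than lower positions (60 and 22), and so did the last 200 bp (34 and 9), whereas at 1400 to 1600 bp inside more positions were lower (65 lower, 51 higher). In CHH the last 200 bp upstream held 142 higher and 123 lower positions. Positions were counted from every retained gene whatever its length, and a region can count for several neighbouring genes.

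**Figure D5:**
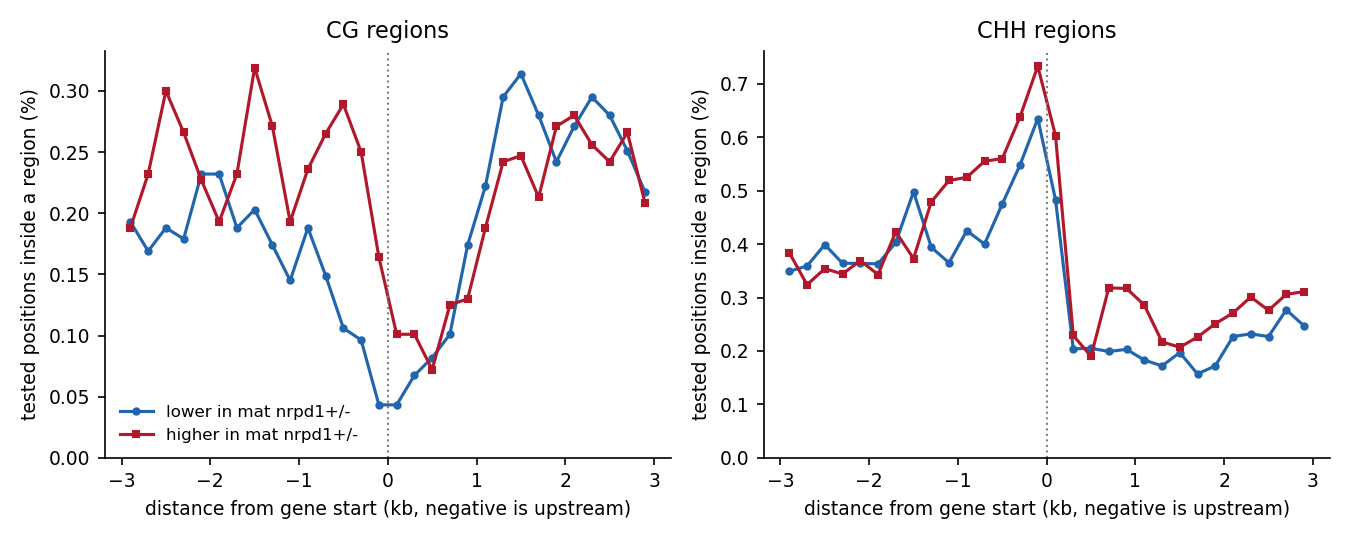
Percent of tested positions that lie in a DMR (y axis) in 200-bp steps by distance from the start of protein-coding genes in kb (x axis, negative upstream), for regions lower and higher in mat nrpd1+/-. The CG lines dip at the start, to 0.0433% for lower regions, and the CHH lines peak in the step just upstream, at 0.635% and 0.733%.

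Of the 20719 protein-coding genes that lay wholly in retained sequence, 1029 (4.97%) had a CG DMR in the gene or within 1 kb, 1560 (7.53%) a CHH DMR, 110 both and 2479 (12%) either. Most of these genes had a single DMR (2255 genes), 198 had 2, 24 had 3 and 2 had 4. AT3G45443, an uncharacterized gene, had 4 regions, all higher in mat nrpd1+/-, with 33.8 and 40.3 points in CG and 12.6 and 13.3 in CHH. CLC-D (AT5G26240), a chloride channel of the endomembrane system, had 4 CG regions of mixed direction. Its values from upstream to downstream were -30.8, 55.0, 41.1 and -31.9 points, so that neighbouring stretches of a gene differed in opposite directions. ABCG11 (AT1G17840), a transporter that exports cuticular lipids, had 3 regions, all higher. They were a CG region of 37.3 points and a CHH region of 45.5 points 801 bp upstream, and a CHH region of 13.2 points at the start of the gene. Against WT the upstream place was listed at 24.96 points in CHH for mat nrpd1+/- and at -32.9 points in CG for pat nrpd1+/-.

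Of the 24 genes with 3 regions, those described here, ABCG11 included, are the first 8 in order of gene identifier, with no other reason for the choice. KUP10 (AT1G31120), a potassium transporter, had 57.9 points in CG downstream, and -10.1 and 27.9 points in CHH in the gene. AT2G11910, uncharacterized, had 3 higher regions upstream (31.7 points in CG, 13.4 and 13.5 in CHH). AT2G01050, a predicted nucleic acid binding protein, had a pair of lower upstream regions (-30.9 points in CG, -10.1 in CHH) and a CHH region of 12.6 points in the gene. AT3G17580, annotated as an SsrA-binding protein, had CHH values of -15.03, 11.29 and -10.68 points. AT3G22125 and AT3G22142 overlap each other on opposite strands and share 3 higher regions (40.9 points in CG, 11.1 and 42.3 in CHH). AT3G44006, uncharacterized, had 36.1, 40.3 and -31.6 points in CG.

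For the genes of the methylation pathways, imprinting and seed growth, DMRs were found at a share close to that of other genes. Of 92 genes in 8 lists, 72 lay in retained sequence, and 11 (15.3%) had a DMR within 1 kb, beside the 12% of all retained genes. In the Pol IV and small RNA list 3 of 10 retained genes had one, all in CG, beside 4.97% of all retained genes, and with 10 genes nothing is read from this share. NRPD4, a subunit that Pol IV shares with Pol V, had 33 points 782 bp upstream, where pat nrpd1+/- was listed at -34.5 points against WT. CLSY3, a chromatin remodeler that recruits Pol IV, had 45.2 points 503 bp downstream. DCL3, the nuclease that cuts Pol IV products into small RNAs, had -37.0 points within the gene, where pat nrpd1+/- was listed 33.9 points above WT. Higher and lower regions thus stood side by side in the Pol IV list, and NRPD2A, RDR2, CLSY1 and SHH1 had none.

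In the Pol V and targeting list 2 of 13 retained genes had a CHH region, both higher in mat nrpd1+/-, beside 7.53% of all retained genes with a CHH DMR. They were DMS3, part of the complex that loads Pol V on chromatin (19.2 points, overlapping the gene), and MORC6, an ATPase that acts in silencing (16.2 points, 882 bp upstream). DRM2 and AGO4 had none. Against the same 7.53%, 1 of 8 retained maintenance and chromatin genes had a CHH DMR, MET1, with -11.5 points in CHH 30 bp downstream, where mat nrpd1+/- was listed at -13.5 points against WT. In the demethylation list it was 1 of 3 retained genes, IDM1, a histone acetyltransferase that guides the demethylase ROS1, with -12.9 points in CHH 911 bp downstream, where pat nrpd1+/- was listed 13.6 points above WT. Lists this short give no share that can be set apart from that of all genes. ROS1 and DME, the demethylase of the central cell, were not in retained sequence.

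Of 13 retained imprinted genes 3 had a DMR in either context (23.1%), beside 12% of all retained genes. MPC, a maternally expressed gene for a poly(A)-binding protein C-terminal domain, had 33.6 points in CG over the gene, and pat nrpd1+/- was listed there at -31.2 points against WT. HDG8, a homeodomain transcription factor, had the largest value among the listed genes in CHH, -38.1 points 58 bp downstream, where mat nrpd1+/- was listed at -31.9 points against WT. AGL28, a MADS-box transcription factor, had 11.8 points in CHH 833 bp downstream, with mat nrpd1+/- listed 17.4 points above WT. FWA, ADM, SDC, SUVH7 and HDG3 had none. Beside the same 12%, 1 of 11 retained endosperm and seed regulators had a DMR, AP2, a transcription factor that limits seed size, with -13.9 points in CHH at the 3' end of the gene. The 7 retained genes of Polycomb repressive complex 2, among them FIS2 and FIE, and the 7 retained genes for sugar transport and cleavage had none. Over all lists, 4 genes had a CG region (1 lower, 3 higher) and 7 a CHH region (4 lower, 3 higher), and 0 had both.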

How the data were processed

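The study used endosperm from 6 samples, of which the 4 heterozygous ones enter the comparison. The authors trimmed reads with Trim Galore, aligned them to TAIR10 with Bismark, pooled the 2 replicates of a genotype, computed methylation in overlapping 300-bp windows and merged windows past 30 points (CG) or 10 points (CHH) into regions. The deposited value of a region is a difference in percent methylation, in percentage points. The deposited lists of retained sequence give the fraction of reads from the maternal genome, which the authors required to lie near its expectation, and regions that varied between replicates were left out. All DMRs lay wholly in retained sequence, and 2 CG DMRs touched a variable region of pat nrpd1+/-. Depth per sample is unknown. Because bisulfite-converted DNA was amplified, reads are not independent molecules.

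Tested sequence was that retained in both heterozygotes minus their variable regions, in 100-bp bins (89.1 Mb for CG, 85.7 Mb for CHH), although reads may have been too few in parts of it. Regions were compared with the RefSeq TAIR10.1 annotation in Python 3.11.15 with NumPy 2.4.6, SciPy 1.17.1 and Matplotlib 3.10.9, and the scripts were tested on simulated data. Overlap meant at least 1 bp. Named were the 5 largest regions per direction and context, the 5 pairs with the largest CG difference, listed genes with a DMR within 1 kb and the 10 genes with the most regions, ties taken in order of gene identifier. A CHH region that this rule names, with its sequence, is not reported here. The members and lists were chosen with earlier results of these data known. The background of 300-bp windows was chosen after seeing the data. No column with the authors' own test results was used.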

Additional observations from a re-analysis of the deposited data

How the results depend on the processing

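The share of CG DMRs lower in mat nrpd1+/- (43.2%) was 32.8% with a stricter difference of 40 points, 39.9% without single-window regions, and 40.3% without regions of 3 or fewer CG sites, an alternative chosen after seeing the data. The CHH share (46.5%) was 42.1% with a stricter difference of 15 points. None of these alternatives, nor merging near regions, leaving out chromosome 5 or keeping sequence retained in all 3 genotypes, brought a majority of lower regions. Under a limit of 40% for gene-poor bins the CG ratio of 1.62 was 1.88. With the stricter differences, the share of CHH DMRs that overlap a CG DMR (2.07%) was 1.27%. Overlap with protein-coding genes (53.1% of CG and 29.4% of CHH DMRs) was 43.8% and 22.7% with the stricter differences, and 50.1% and 19.9% by the midpoint alone. Overlap with the 1 kb upstream (19.2% and 33.7%) was 11.3% and 25.1% for 500 bp, 37.8% and 47.0% for 2 kb, and 15.6% and 26.1% by the midpoint, as the construction of these alternatives implies. The other 19 of 35 alternative values lay within the interval of the value reported.

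No paired analysis was possible because the lists pool the replicates of a genotype, and for the same reason no replicate was left out. Beyond the exclusion of regions that varied between replicates, the spread of any single difference between replicates cannot be seen from these lists. The number of reads behind it cannot be seen either.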
